A study of Mus musculus with 16 samples.

Results

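The genes described here are 44 members of the protein-folding and glycosylation machinery of the endoplasmic reticulum (ER), taken by gene symbol from the 26625 entries of the table, and all 44 were found there. They were put together with earlier results of these data in view, and 2 of them, Creld2 and Ssr3, were included because the knockdown effect on them differed between saline and morphine. For these 2 genes every value below is a description without a test, and the same holds for the difference between the 2 knockdown effects in any member. The other 42 members were tested in the comparisons between viruses and between treatments.

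The RNA came from the medial prefrontal cortex (mPFC) of male C57BL/6 mice aged 8 to 10 weeks, sequenced as full-length cDNA on a Nanopore platform. All 16 mice had received an AAV that also carries EGFP under the CMV promoter. In 9 mice the U6 promoter drove a short hairpin RNA against Kdm7a, a histone demethylase, and in 7 mice it drove a control hairpin. With each virus, mice had 10 days of place conditioning. The saline groups received saline, and the morphine groups received morphine (10 mg/kg) alternating with saline. Tissue was taken on day 17, which was withdrawal day 7, right after the second place preference test that followed conditioning. The groups were Ctrl + Saline (3 mice), Ctrl + Morphine (4 mice), Kdm7a-shRNA + Saline (5 mice) and Kdm7a-shRNA + Morphine (4 mice). The U6 promoter is active in every infected cell type and the samples are bulk tissue, so that fewer cells of a type and less RNA per cell cannot be told apart.

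Proteins bound for the cell surface, for secretion or for most organelles of the secretory pathway enter the ER through the Sec61 channel, receive N-linked glycans from the oligosaccharyltransferase beside the channel, and are folded by chaperones and by disulfide isomerases. When unfolded proteins accumulate, the sensors encoded by Atf6, Ern1 and Eif2ak3 start the unfolded protein response, which raises transcription of chaperones through ATF6 and the spliced form of XBP1. Neurons depend on this pathway for receptors, channels and adhesion molecules, and many of its genes share a promoter element, the ER stress response element (ERSE), in which a CCAAT box bound by NF-Y lies at a set distance from a CCACG core bound by ATF6 or XBP1.

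The ERSE is shown first because it is the best-known sequence that chaperone genes of this group share. The motif search below was not used to choose the members. Since the element is already known from chaperone genes, its frequency among the members is a description and no independent result. Promoter windows of 300 bases, from 250 before to 50 after the transcription start, were taken from RefSeq on GRCm38.p6, and 36 of the 44 members had 1 or more windows. Both strands were searched. The ERSE was searched as CCAAT followed after 9 bases of any kind by CCACG, and was found for 8 of these 36 members and for 37 of all 27025 genes with a window, or 0.137%. The related ERSE-II, searched as ATTGG, 1 base of any kind and CCACG, shares the CCACG core with the first motif and was found for 3 of the 36 members and for 12 of all genes, or 0.0444%. No window held both. The unfolded protein response element TGACGTGG was found for 0 of the 36 members and for 0.714% of all genes. The sites are written in the direction in which they read CCAAT or ATTGG first, with the fixed letters in capitals.
Creld2 site: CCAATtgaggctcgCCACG
Hspa5 site: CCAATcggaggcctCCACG
Hsp90b1 distal site: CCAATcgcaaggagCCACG
Hsp90b1 proximal site: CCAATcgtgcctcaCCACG
Dnajc3 site: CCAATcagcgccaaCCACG
Calr site: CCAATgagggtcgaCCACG
Canx site: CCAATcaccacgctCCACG
Pdia6 site: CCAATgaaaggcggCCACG
Syvn1 site: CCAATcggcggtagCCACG
Herpud1 ERSE-II site: ATTGGgCCACG
Dnajb11 ERSE-II site: ATTGGcCCACG
Krtcap2 ERSE-II site: ATTGGaCCACG

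In 4 of these genes, the whole window is given because they span the responses described below. Creld2 had opposite differences under the 2 treatments, Hspa5 passed no comparison, and Dnajc3 and Herpud1 rose with the knockdown under saline. Capitals mark the ERSE or ERSE-II as it stands on the strand of the gene, so that the Creld2 element reads in reverse, and in Herpud1 they also mark a match to TGATGNAAN, an amino acid response element of the kind bound by ATF4, which was found for 4.5% of all genes with a window.
Creld2 (chr15:88819396-88819695, plus strand): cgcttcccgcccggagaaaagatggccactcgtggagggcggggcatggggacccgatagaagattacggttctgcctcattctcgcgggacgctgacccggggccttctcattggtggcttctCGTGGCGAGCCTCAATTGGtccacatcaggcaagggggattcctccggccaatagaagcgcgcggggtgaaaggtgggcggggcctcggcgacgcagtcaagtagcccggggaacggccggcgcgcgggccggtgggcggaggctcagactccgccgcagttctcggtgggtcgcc
Hspa5 (chr2:34771840-34772139, plus strand): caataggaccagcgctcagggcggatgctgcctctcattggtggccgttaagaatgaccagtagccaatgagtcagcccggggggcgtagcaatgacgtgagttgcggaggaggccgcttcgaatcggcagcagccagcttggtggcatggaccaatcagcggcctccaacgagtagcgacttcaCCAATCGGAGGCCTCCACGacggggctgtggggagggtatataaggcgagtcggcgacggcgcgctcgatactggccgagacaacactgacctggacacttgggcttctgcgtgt
Dnajc3 (chr14:118937682-118937981, plus strand): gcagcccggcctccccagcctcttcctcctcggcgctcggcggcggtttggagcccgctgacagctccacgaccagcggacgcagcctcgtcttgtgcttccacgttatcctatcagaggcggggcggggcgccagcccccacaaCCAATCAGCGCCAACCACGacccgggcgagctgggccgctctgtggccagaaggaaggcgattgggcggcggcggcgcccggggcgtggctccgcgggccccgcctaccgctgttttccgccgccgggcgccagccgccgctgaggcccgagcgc
Herpud1 (chr8:94386179-94386478, plus strand): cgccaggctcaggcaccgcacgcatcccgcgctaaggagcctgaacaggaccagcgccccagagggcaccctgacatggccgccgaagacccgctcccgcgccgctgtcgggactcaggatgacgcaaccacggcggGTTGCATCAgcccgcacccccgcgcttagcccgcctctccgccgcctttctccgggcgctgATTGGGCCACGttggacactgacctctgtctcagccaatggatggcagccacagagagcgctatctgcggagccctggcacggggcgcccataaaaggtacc

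The windows of Sdf2l1, Pdia3, P4hb, Ddost and Ssr3 held neither ERSE motif, which says only that these letters are not in those 300 bases. Of the members tested under saline, 2 of 10 with an ERSE or ERSE-II and 5 of 24 whose window held neither rose with the knockdown, beside 9.14% of the 11036 tested known genes with a window. The median log2 fold change under saline was 0.14 over the 11 members with an element and 0.17 over the 25 without one, Creld2 and Ssr3 included.

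Creld2 encodes an ER-resident protein with disulfide isomerase activity that is induced by ER stress. Its level, as CPM after TMM normalisation (reads scaled to the same effective library size in every mouse), was 9.52, 6.15 and 7.29 in the Ctrl + Saline mice and 21.6, 14.9, 17.3, 15.3 and 15 in the Kdm7a-shRNA + Saline mice. Every knockdown mouse lay above every control mouse under saline. Under morphine the order was the opposite, with 13.8, 12, 11.7 and 15.9 CPM in the Ctrl + Morphine mice and 7.97, 9.95, 7.47 and 9.12 CPM in the Kdm7a-shRNA + Morphine mice, again without overlap. The group means were 7.65 ± 1.71 (SD, n = 3), 13.3 ± 1.97 (SD, n = 4), 16.8 ± 2.86 (SD, n = 5) and 8.63 ± 1.12 (SD, n = 4) CPM in the order Ctrl + Saline, Ctrl + Morphine, Kdm7a-shRNA + Saline, Kdm7a-shRNA + Morphine. Hence either the hairpin alone or morphine alone went with a higher level, and mice with both lay near the mice with neither. The log2 difference with the knockdown was 1.14 ± 0.188 (SE) under saline and -0.63 ± 0.176 under morphine, and the difference between these 2 effects was -1.77 ± 0.256. It ranged from -1.63 to -1.91 when single mice were left out. Creld2 was chosen for this difference in the same mice, so the range shows only how far 1 mouse moves it.

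Creld2 lies on chromosome 15 at 88819646 to 88826683 (GRCm38, GENCODE vM21), and the mannosyltransferase gene Alg12, whose product builds the N-glycan precursor, starts 328 bases away on the opposite strand. The ranges of Alg12 overlapped in both comparisons of the viruses. Its log2 fold change was 0.18 ± 0.215 (edgeR quasi-likelihood adjusted p = 0.579) under saline and -0.03 ± 0.208 (adjusted p = 0.946) under morphine. The paralogue Creld1 gave 14.6 to 16 CPM in Ctrl + Saline and 14 to 18.5 CPM in Kdm7a-shRNA + Saline mice, with log2 fold changes of 0.05 ± 0.139 (adjusted p = 0.817) under saline and 0.08 ± 0.134 (adjusted p = 0.770) under morphine.

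Ssr3, the gamma subunit of the translocon-associated protein (TRAP) complex that sits at the Sec61 channel, had the reverse pattern. The Ctrl + Saline mice gave 59.2, 158 and 112 CPM and the Kdm7a-shRNA + Saline mice 36.9, 69.9, 73.7, 50.7 and 47.5 CPM. The first Ctrl + Saline mouse lay inside the range of the knockdown mice, so these groups overlapped. Under morphine they did not. The Ctrl + Morphine mice gave 54.4, 64.3, 64.5 and 38.9 CPM and the Kdm7a-shRNA + Morphine mice 146, 138, 143 and 131 CPM. The log2 difference with the knockdown was -0.98 ± 0.251 under saline and 1.33 ± 0.251 under morphine, and the difference between the effects was 2.30 ± 0.354. Ctrl + Saline replicates 1 and 2 moved the saline value most. It was -1.31 without replicate 1 and -0.62 without replicate 2, and the difference between the effects was then 2.65 and 1.94. Ssr3 too was chosen for this difference, so these values show only how far 1 mouse moves it. Ssr3 lies on chromosome 3 at 65379655 to 65392623, on the minus strand, with no overlapping gene in the annotation.

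**Figure D1:**
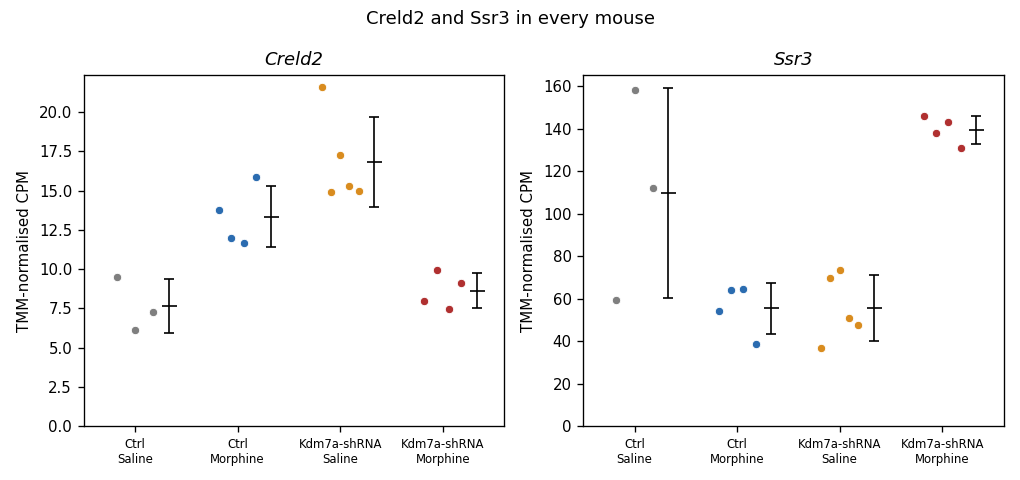
TMM-normalised CPM (vertical axes, from 0) of Creld2 and Ssr3 in each of the 16 mice, one point per mouse, with the group mean and SD as a black bar beside the points. Creld2 was highest in Kdm7a-shRNA + Saline (14.9 to 21.6) and lowest in Ctrl + Saline (6.15 to 9.52), while Ssr3 stood at 131 to 146 in Kdm7a-shRNA + Morphine and at 38.9 to 64.5 in Ctrl + Morphine.

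Other subunits of the TRAP complex did not show the Ssr3 pattern in their values. The difference between the 2 knockdown effects was 0.17 ± 0.14 for Ssr1, 0.06 ± 0.139 for Ssr2 and -0.17 ± 0.217 for Ssr4. Among the other 42 members it was largest in size for Sdf2l1 (-1.89 ± 0.424), followed by Ddost (-1.59 ± 0.327), Pdia3 (-1.48 ± 0.342) and Xbp1 (-1.22 ± 0.46), and its median over all 44 members was -0.04. Over all 18826 genes tested, 0.085% passed the test of this difference. The difference of Sdf2l1 was thus larger than that of Creld2 and its standard error was larger too, and no test is given because the choice of members used this contrast.

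The targeted gene was measured in each mouse as a check of the labels. Kdm7a stood at 9.08 to 9.78 CPM in Ctrl + Saline, 6.19 to 8.89 in Ctrl + Morphine, 4.92 to 6.07 in Kdm7a-shRNA + Saline and 3.01 to 6.28 in Kdm7a-shRNA + Morphine. Its log2 fold change with the hairpin was -0.76 ± 0.204 (adjusted p = 0.0153) under saline and -0.67 ± 0.206 (adjusted p = 0.0506) under morphine, where the groups overlapped by 1 Ctrl mouse. Between 6596991 and 12418112 reads per mouse were counted. By the correlation of log2 CPM, the first Ctrl + Saline mouse resembled the Ctrl + Morphine mice (0.981) more than its own group (0.977).

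Under saline the knockdown went with higher levels of 9 members, spread over the chaperones, the isomerases, the degradation machinery, 1 stress sensor and 1 subunit of the oligosaccharyltransferase, and no member fell by both criteria. A member passed when its adjusted p over the 18826 tested genes was under 0.05 and its level changed at least 1.5-fold. The 9 of 42 members compare with 16.7% of all genes passing in either direction and 7.43% passing as higher, or 9% of the known genes passing as higher. All 44 members passed the filter on low counts. With the adjusted p alone, by which 20.3% of all genes passed, 10 members were higher and 1 was lower, the added ones being Ssr4 and Rpn1. The groups did not overlap in 11 higher and 3 lower members of the 42, against 23.7% of all genes. The median log2 fold change over the 44 members was 0.17, against 0.10 over the known genes tested and 0.01 over all genes. The 9 calls share their Ctrl mice. The second Ctrl + Saline mouse was the lowest of its group for Sdf2l1, Manf, P4hb, Herpud1, Derl1 and Ddost, though not for Pdia3. Without it Manf, Dnajc3, Eif2ak3 and Derl1 did not pass. Dnajc3, Eif2ak3 and Derl1 did not pass without the third Ctrl + Saline mouse either.

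Among the 10 chaperones and cochaperones, 3 rose under saline. Sdf2l1, which works with DnaJ cochaperones to keep unfolded proteins soluble, stood at 6.87, 2.54 and 3.31 CPM in Ctrl + Saline and at 14.8, 13, 21.7, 11.8 and 17.2 CPM in Kdm7a-shRNA + Saline mice. This was the largest fold change among the members, 1.91 ± 0.319 on the log2 scale (adjusted p = 9.98e-04). Under morphine the same gene showed no separation, at 8.89, 7.04, 7.79 and 6.85 CPM in Ctrl and 6.28, 7.31, 11.7 and 5.10 CPM in Kdm7a-shRNA mice, and the knockdown effect there was 0.01 ± 0.285 (adjusted p = 0.986). Averaged over both treatments the change was 0.96 ± 0.212 (adjusted p = 0.00280). Sdf2l1 lies on chromosome 16 at 17130138 to 17132383 and overlaps no other gene.

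Manf, a secreted ER stress protein that binds the chaperone BiP, stood at 35, 20.1 and 42.3 CPM in Ctrl + Saline and at 45.1 to 62.8 CPM in Kdm7a-shRNA + Saline mice, and rose by 0.74 ± 0.187 (adjusted p = 0.0111). Its call rested on the second Ctrl + Saline mouse, without which the change was 0.49 (adjusted p = 0.053). The Manf locus overlaps Rbm15b on the same strand in the annotation. Dnajc3, a BiP cochaperone that also inhibits the kinase PERK, stood at 8.39 to 10.3 CPM against 12.9 to 20.5 CPM and rose by 0.75 ± 0.222 (adjusted p = 0.0249). Its call was lost without any 1 of the 3 Ctrl + Saline mice (adjusted p = 0.0579, 0.109 and 0.0755 without replicates 1, 2 and 3) and without Kdm7a-shRNA + Saline replicate 3 (adjusted p = 0.0597). Neither gene separated under morphine, where the log2 fold changes were 0.03 ± 0.177 for Manf (adjusted p = 0.934) and -0.06 ± 0.212 for Dnajc3 (adjusted p = 0.899).

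The other 7 chaperones, BiP among them, did not pass in either treatment. Hspa5, which encodes BiP, the central ER chaperone, stood at 133, 197 and 221 CPM in Ctrl + Saline and at 158, 156, 254, 152 and 183 CPM in Kdm7a-shRNA + Saline mice. These ranges overlapped, and the log2 fold change was -0.03 ± 0.166 (adjusted p = 0.930). Under morphine all 4 knockdown mice (159, 171, 151 and 175 CPM) lay above all 4 Ctrl mice (122, 124, 132 and 125 CPM), but the log2 fold change of 0.39 ± 0.161 did not pass (adjusted p = 0.140). Hsp90b1, the ER form of HSP90, gave 0.09 ± 0.11 (adjusted p = 0.579) under saline and 0.19 ± 0.106 (adjusted p = 0.277) under morphine. The lectin chaperones Calr and Canx, which hold glycoproteins during folding, had log2 fold changes of 0.13 ± 0.148 and 0.12 ± 0.0956 under saline. The J-domain cochaperones of BiP, Dnajb9 and Dnajb11, gave 0.71 ± 0.337 (adjusted p = 0.141) and 0.35 ± 0.228 (adjusted p = 0.289), and both were lowest in the second Ctrl + Saline mouse, at 2.05 and 13.8 CPM against 8.45 CPM or more and 27.2 CPM or more in every other mouse. Hyou1, a nucleotide exchange factor of BiP, was the only chaperone whose knockdown mice all lay below the Ctrl mice under saline, at 16.5 to 20.4 against 20.5 to 20.9 CPM, a log2 difference of -0.21 ± 0.123 (adjusted p = 0.243).

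Among the isomerases, which form and rearrange disulfide bonds, 2 of the 5 tested members rose under saline. Pdia3, the partner of calnexin and calreticulin, stood at 101, 48.9 and 43.3 CPM in Ctrl + Saline and at 158, 151, 216, 158 and 208 CPM in Kdm7a-shRNA + Saline mice. It rose by 1.47 ± 0.256 (adjusted p = 0.00129), while the Ctrl + Morphine mice (120, 93.7, 108 and 128 CPM) and the Kdm7a-shRNA + Morphine mice (111, 147, 112 and 74.6 CPM) overlapped and gave -0.02 ± 0.234 (adjusted p = 0.978). The first Ctrl + Saline mouse lay in the range of the Ctrl + Morphine mice for this gene. The gene Catsper2 overlaps the Pdia3 locus on the opposite strand. Of the 44 members, 15 overlap another annotated gene, 3 of them on the same strand, and whether reads were counted by strand is not given in the sources used here.

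P4hb, which encodes the prototype protein disulfide isomerase, stood at 27.8, 18.7 and 27 CPM in Ctrl + Saline and 37.7, 49.5, 48.9, 36.7 and 52.8 CPM in Kdm7a-shRNA + Saline mice, and rose by 0.88 ± 0.193 (adjusted p = 0.00494). Under morphine it stood at 34.6, 28.6, 28.1 and 28 CPM in Ctrl and at 42, 33.8, 52.1 and 29.5 CPM in knockdown mice, a change of 0.40 ± 0.181 that did not pass (adjusted p = 0.172). Averaged over treatments, P4hb rose by 0.64 ± 0.132 (adjusted p = 0.00163). Pdia4 passed in neither treatment, with the larger value under morphine in a difference that was not tested. It stood at 15.2, 12.3 and 18.9 CPM in Ctrl + Saline, 13.7, 10.6, 12.8 and 11.2 in Ctrl + Morphine, 15.1, 19.5, 27.5, 16.4 and 20.9 in Kdm7a-shRNA + Saline and 15.6, 18.1, 20.4 and 14.6 in Kdm7a-shRNA + Morphine mice. The log2 fold changes were 0.36 ± 0.196 (adjusted p = 0.198) and 0.52 ± 0.19 (adjusted p = 0.0942), and their average of 0.44 ± 0.137 had an adjusted p of 0.0227 without reaching the fold criterion. Pdia6, an isomerase that also acts on the sensor IRE1, gave -0.17 ± 0.124 (adjusted p = 0.348) and -0.22 ± 0.121 (adjusted p = 0.264).

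**Figure D2:**
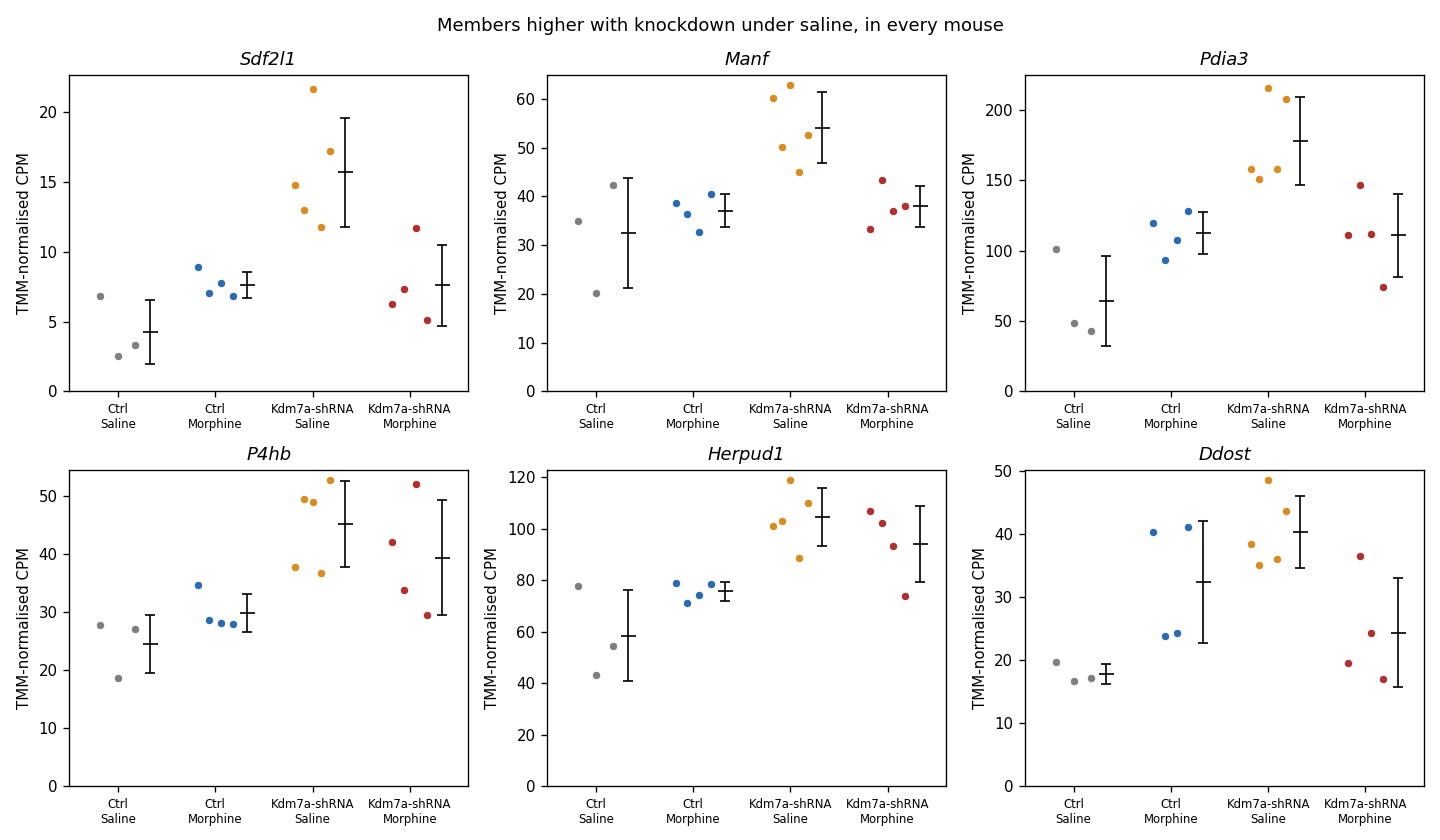
TMM-normalised CPM (vertical axes, from 0) of 6 members that rose with the knockdown under saline, one point per mouse and group, with the group mean and SD as black bars. In each panel all 5 Kdm7a-shRNA + Saline mice lie above the 3 Ctrl + Saline mice, while the 2 morphine groups overlap.

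Among the sensors and transcription factors, 1 of 4 rose under saline. Eif2ak3, which encodes the PERK kinase, stood at 2.38, 1.85 and 1.85 CPM in Ctrl + Saline and at 2.71 to 4.71 CPM in Kdm7a-shRNA + Saline mice and rose by 0.80 ± 0.252 (adjusted p = 0.0330), on 14 to 41 reads per mouse in these groups. Its call was lost without Ctrl + Saline replicate 2 (adjusted p = 0.120) or 3 (adjusted p = 0.131) and without Kdm7a-shRNA + Saline replicate 1 (adjusted p = 0.0723) or 2 (adjusted p = 0.0529). Xbp1, whose spliced mRNA encodes the main transcription factor of the IRE1 arm, stood at 18.8, 13.7 and 19.9 CPM in Ctrl + Saline and 41.4, 26.2, 35.2, 22.6 and 34.2 CPM in Kdm7a-shRNA + Saline mice. These groups did not overlap, but the spread was wide, and the log2 fold change of 0.88 ± 0.336 did not pass (adjusted p = 0.0731). Under morphine, Xbp1 ranged from 16.1 to 36.3 CPM in Ctrl and from 11 to 36.1 CPM in knockdown mice, and the knockdown effect there was -0.34 ± 0.316 (adjusted p = 0.539). Counts per gene sum the spliced and unspliced forms of Xbp1, so that its activation is not measured here.

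Atf6, whose product is cleaved into a transcription factor, stood at 11.5, 17.5 and 14 CPM in Ctrl + Saline, 12, 18.9, 14.1 and 12.9 in Ctrl + Morphine, 14.8, 13.8, 12, 14.1 and 13.3 in Kdm7a-shRNA + Saline and 14.7, 11, 14.3 and 16 in Kdm7a-shRNA + Morphine mice. All 4 groups overlapped, with log2 fold changes of -0.08 ± 0.175 (adjusted p = 0.778) under saline and -0.05 ± 0.17 (adjusted p = 0.886) under morphine. Ern1, which encodes the IRE1 sensor, was counted with only 2 to 13 reads per mouse, and its log2 fold changes of 0.35 ± 0.441 and -0.42 ± 0.408 have errors of about the size of the values.

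Among the 5 members of ER-associated degradation, which returns misfolded proteins to the cytosol, 2 rose under saline. Herpud1, which organises the degradation complex, stood at 77.7, 43.3 and 54.4 CPM in Ctrl + Saline and 101, 103, 119, 88.7 and 110 CPM in Kdm7a-shRNA + Saline mice and rose by 0.84 ± 0.165 (adjusted p = 0.00279). Under morphine the Ctrl mice gave 78.7, 71.1, 74.3 and 78.4 CPM and the knockdown mice 107, 102, 93.3 and 73.7 CPM, a log2 difference of 0.31 ± 0.155 (adjusted p = 0.213). Only the fourth knockdown mouse fell within the Ctrl range. Averaged over treatments, Herpud1 had the smallest adjusted p of the members, 0.00116, with a change of 0.58 ± 0.113, a fold of 1.49 that was just under the criterion.

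Derl1, a subunit of the retrotranslocation channel, rose by 0.64 ± 0.19 (adjusted p = 0.0250), although its Ctrl + Saline mice (33, 18.2 and 20 CPM) overlapped the Kdm7a-shRNA + Saline range of 29.6 to 40.1 CPM. Its call was lost without Ctrl + Saline replicate 2 (0.48, adjusted p = 0.138) or 3 (0.51, adjusted p = 0.146) and without Kdm7a-shRNA + Saline replicate 5 (0.61, adjusted p = 0.0502). The ubiquitin ligase Syvn1, its partner Sel1l and the channel subunit Derl2 gave 0.30 ± 0.172, 0.19 ± 0.103 and 0.13 ± 0.155 under saline, with adjusted p of 0.196 to 0.600, and none of the 5 passed under morphine.

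Of the 8 tested members of the translocon and TRAP complex, none passed both criteria under saline. Ssr4, the delta subunit of TRAP, stood at 188, 172 and 178 CPM in Ctrl + Saline and 218, 263, 289, 215 and 263 CPM in Kdm7a-shRNA + Saline mice. The groups did not overlap, and the log2 difference of 0.48 ± 0.158 had an adjusted p of 0.0411 without reaching the fold criterion. Under morphine the Ctrl mice gave 196, 167, 171 and 182 CPM and the knockdown mice 191, 200, 316 and 181 CPM, so that 1 mouse stood apart, and the log2 fold change was 0.31 ± 0.151 (adjusted p = 0.205).

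Ssr2, the beta subunit of TRAP, stood at 133, 132 and 151 CPM in Ctrl + Saline, 137, 134, 135 and 136 in Ctrl + Morphine, 149, 148, 161, 157 and 170 in Kdm7a-shRNA + Saline and 166, 162, 178 and 134 in Kdm7a-shRNA + Morphine mice. Its average change was small, 0.21 ± 0.07 (adjusted p = 0.0345). Sec63, which recruits BiP to the channel, went the other way in both treatments. It stood at 19.6, 20.9 and 24.4 CPM in Ctrl + Saline and 16.9, 20, 19.1, 15.4 and 15.3 in Kdm7a-shRNA + Saline mice, and at 20.5, 21.1, 23.3 and 19.2 CPM in Ctrl + Morphine and 16.7, 17.6, 17.5 and 17 in Kdm7a-shRNA + Morphine mice. The average log2 difference was -0.30 ± 0.0901 (adjusted p = 0.0188), under the fold criterion. The channel subunits Sec61a1, Sec61b and Sec61g, the auxiliary factor Sec62 and the alpha subunit of TRAP, Ssr1, had log2 fold changes from -0.19 to 0.32 under saline and from -0.07 to 0.28 under morphine, and none passed. Reads under 500 bases were removed by the authors, and 6 members have some annotated coding transcripts below that length (Sec61b, Sec61g, Ssr2, Manf, Dnajb9 and Stt3a, each beside longer ones).

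Of the 10 members of the oligosaccharyltransferase, which transfers the glycan to asparagine residues, only Ddost rose under saline by both criteria. Ddost, a scaffold subunit of both forms of the complex, stood at 19.6, 16.6 and 17.1 CPM in Ctrl + Saline and 38.4, 35, 48.5, 36.0 and 43.6 CPM in Kdm7a-shRNA + Saline mice (log2 fold change 1.18 ± 0.241, adjusted p = 0.00336). Under morphine the Ctrl mice split, at 40.2, 23.8, 24.2 and 41.1 CPM, and the knockdown mice gave 19.5, 36.5, 24.2 and 17 CPM. The log2 fold change was then -0.41 ± 0.223 (adjusted p = 0.262).

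Rpn1, which positions substrates for the complex, moved by less but in the opposite direction. It stood at 124, 120 and 124 CPM in Ctrl + Saline, 101, 116, 99.3 and 120 in Ctrl + Morphine, 104, 88.5, 105, 98.3 and 98.1 in Kdm7a-shRNA + Saline and 89.8, 95, 91.8 and 95 in Kdm7a-shRNA + Morphine mice. The knockdown mice lay below the Ctrl mice in both treatments, and the log2 difference was -0.31 ± 0.0956 (adjusted p = 0.0284) under saline, -0.23 ± 0.0935 (adjusted p = 0.126) under morphine and -0.27 ± 0.0669 (adjusted p = 0.00581) on average, all under the fold criterion.

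Tusc3, the oxidoreductase subunit that keeps cysteines accessible to glycosylation, was the oligosaccharyltransferase member with the smallest adjusted p under morphine. The Ctrl + Morphine mice gave 416, 421, 376 and 441 CPM and the Kdm7a-shRNA + Morphine mice 271, 359, 217 and 293 CPM, which did not overlap, and the log2 difference of -0.54 ± 0.173 had an adjusted p of 0.0592. Under saline the Ctrl mice gave 337, 217 and 227 CPM and the knockdown mice 343, 272, 264, 415 and 272 CPM, a log2 difference of 0.27 ± 0.18 (adjusted p = 0.312). Its paralogue Magt1 gave 0.17 ± 0.202 and 0.32 ± 0.196. The catalytic subunits Stt3a and Stt3b and the subunits Rpn2, Dad1, Ostc and Krtcap2 had log2 fold changes from -0.28 to 0.14 under saline and from -0.06 to 0.20 under morphine, and none passed.

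**Figure D3:**
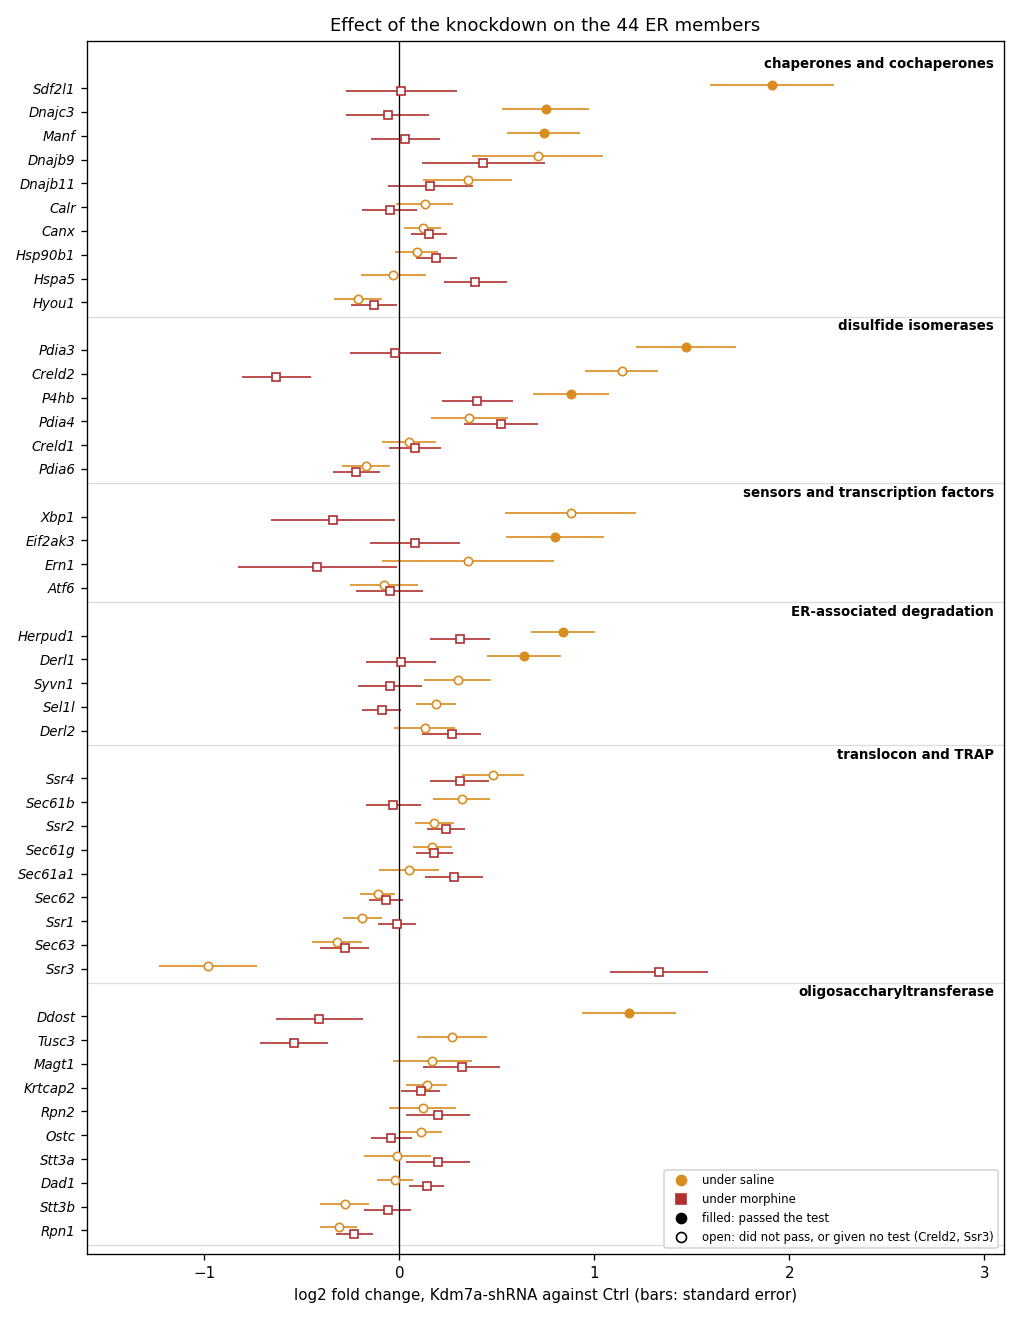
Log2 fold change of Kdm7a-shRNA against Ctrl mice for each of the 44 members, grouped by role, with standard errors as horizontal bars, circles for saline and squares for morphine. The 9 filled circles are the members that rose under saline, no square is filled, and the 2 values of Creld2 and of Ssr3, which carry no test, lie on opposite sides of 0.

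Under morphine no tested member passed with the knockdown, where 7.69% of all genes passed. Among the 14162 known genes tested, 477 passed there as higher and 180 as lower. By an unadjusted p under 0.05 there were 7 members (Hspa5, Pdia4, P4hb, Ssr2, Sec63, Rpn1 and Tusc3) of 42, against 4805 of all 18826 genes, and DESeq2 called 0. The groups did not overlap in 4 higher and 3 lower members of the 42, against 13.9% of all genes. The median log2 fold change over the 44 members was 0.02, against 0.04 over the known genes tested. Averaged over the treatments, 3 of the 42 members rose (Sdf2l1, Pdia3 and P4hb), or 7.14%, and none fell. As higher, 7.68% of all genes and 9.17% of the known genes passed, and 17.6% of all genes passed in either direction. With the adjusted p alone there were 8 higher and 2 lower members, against 27.6% of all genes. A call under saline and none under morphine does not show that the effects differ, and the test of that difference is not given for the reason stated above.

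**Figure D4:**
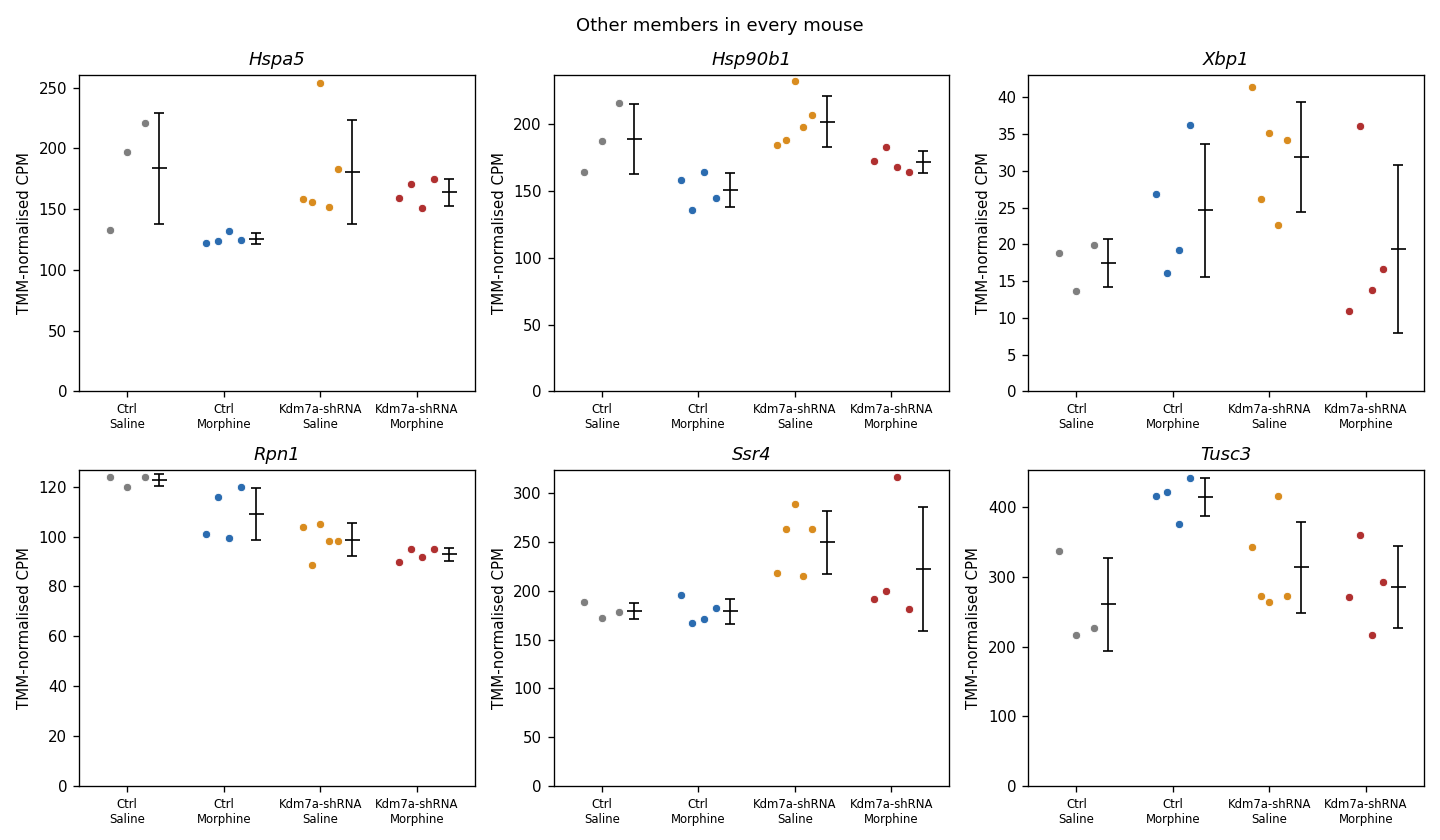
TMM-normalised CPM (vertical axes, from 0) of 6 further members in each mouse, with the group mean and SD as black bars. Hspa5 and Xbp1 did not pass under saline, and Rpn1 was lower with the knockdown by less than the fold criterion. For Ssr4, 1 Kdm7a-shRNA + Morphine mouse stood at 316. The mean of Tusc3 was highest in Ctrl + Morphine, at 376 to 441, which overlaps the 264 to 415 of Kdm7a-shRNA + Saline.

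Morphine against saline was compared within each virus. With the control virus no member and no other gene passed (0%), while 8 members had an unadjusted p under 0.05, as had 2205 of all 18826 genes, and DESeq2 called 0 members. The groups did not overlap in 3 higher and 5 lower members of the 42, against 12.4% of all genes. Hspa5 was lower in every Ctrl + Morphine than in every Ctrl + Saline mouse (-0.55 ± 0.173, adjusted p = 0.220), and Ddost (0.87 ± 0.248, adjusted p = 0.172) and Tusc3 (0.67 ± 0.19, adjusted p = 0.172) were higher in every mouse. When single mice were left out in turn, members passed only without the first Ctrl + Saline mouse, where 1.18% of all genes passed. The 3 members were Pdia3 (1.25, adjusted p = 0.0106), Tusc3 (0.86, adjusted p = 0.0473) and Hspa5 (-0.77, adjusted p = 0.0263). This mouse lay nearest to the Ctrl + Morphine group, so that leaving it out widens the difference between these groups by construction, and these values support no call.

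With the knockdown virus no member passed either, against 0.00531% of all genes, while 8 of 42 members and 1321 of all 18826 genes had an unadjusted p under 0.05 and DESeq2 called 0 members. The log2 difference of morphine against saline was positive for 11 of the 44 members, with a median of -0.14 against -0.00 over all genes. In 7 of the 42 tested members every Kdm7a-shRNA + Morphine mouse lay below every Kdm7a-shRNA + Saline mouse, and none lay wholly above, where 1.94% of all genes did not overlap in either direction and 0.988% were wholly lower. The 7 members were Sdf2l1, Pdia3, Dnajc3, Manf, Sel1l, Pdia6 and Hsp90b1. Their log2 differences were -1.02 ± 0.267 for Sdf2l1, -0.68 ± 0.224 for Pdia3, -0.66 ± 0.201 for Dnajc3, -0.51 ± 0.169 for Manf, -0.24 ± 0.0949 for Sel1l, -0.24 ± 0.115 for Pdia6 and -0.23 ± 0.101 for Hsp90b1, with adjusted p of 0.427 to 0.721. This comparison shares the Kdm7a-shRNA + Saline mice with the knockdown comparison under saline, so that a high value in that group enters both.

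Other genes of the same pathways, which are not members, were counted for the averaged knockdown. In this comparison 7.68% of all genes and 9.17% of the known genes passed as higher, and 300 of the 14162 known genes as lower. Of 49 further genes of ER folding, 6 rose and none fell, led by the thioredoxin-like transmembrane protein Tmx1 (0.59 ± 0.0985, adjusted p = 3.66e-04) and the collagen lysyl hydroxylases Plod3 (0.73 ± 0.172, adjusted p = 0.00445) and Plod1 (0.78 ± 0.229, adjusted p = 0.0162). Of 37 genes of N-glycan synthesis and trimming, 1 rose and 3 fell, the latter being the glucosyltransferase Alg10b (-0.72 ± 0.123, adjusted p = 4.43e-04), the mannosyltransferase Alg11 (-0.65 ± 0.151, adjusted p = 0.00427) and Nus1 (-0.59 ± 0.152, adjusted p = 0.00822), a subunit of the enzyme that makes the dolichol carrier. Of 31 genes of ER-associated degradation 2 rose, Edem2 (0.95 ± 0.165, adjusted p = 4.73e-04) and Edem1 (1.06 ± 0.274, adjusted p = 0.00809), which mark misfolded glycoproteins. None of 36 genes of targeting, translocation and membrane insertion passed. In the integrated stress response, the arm downstream of PERK and related kinases, 13 of 26 genes rose and none fell, led by Chac1 (1.79 ± 0.163), Atf3 (2.92 ± 0.278) and Mthfd2 (1.52 ± 0.171), with adjusted p of 2.81e-06 to 1.30e-05. The shares that rose were 12.2%, 2.7%, 6.45%, 0% and 50% in the order in which the 5 lists are named. The medians of these 5 lists were 0.17, 0.08, 0.13, 0.00 and 0.56, beside 0.16 for the members and 0.07 for the known genes tested.

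Cell type markers moved with the virus as well. All 9 microglial markers were found, 8 of them rose with the averaged knockdown, and their summed level was 901 to 1280 CPM in Ctrl + Saline, 556 to 1150 in Ctrl + Morphine, 1730 to 4990 in Kdm7a-shRNA + Saline and 1090 to 4840 in Kdm7a-shRNA + Morphine mice. The sums were 2300, 3460, 4990, 1730 and 4080 CPM in the Kdm7a-shRNA + Saline mice, and of the 9 members that rose under saline 6 were highest in the mouse with the highest sum, the third (Sdf2l1, Pdia3, Ddost, Herpud1, Manf and Dnajc3), while P4hb, Eif2ak3 and Derl1 were highest in another mouse. In the Kdm7a-shRNA + Morphine mice the sums were 2070, 1780, 4840 and 1090 CPM, and again the third mouse had the highest. There only Sdf2l1 and P4hb of the 9 were highest in that mouse, Derl1 was tied at the printed precision, and the other 6 were highest in another mouse. How many of all genes were highest in the third mouse of each group was not counted, so these numbers are a description. The third mouse of each knockdown group had the highest sums for other cell types too. Its astrocyte, endothelial, and pericyte and fibroblast sums were 1570, 306 and 88.3 CPM under saline. Under morphine they were 1580, 336 and 99.5 CPM, and its precursor sum was also the highest, at 38.1 CPM. The neuronal, oligodendrocyte, and B and plasma cell sums were highest in other mice in both groups, and the precursor sum under saline. In the averaged knockdown 3 of 6 astrocyte markers, 2 of 5 endothelial, 1 of 5 pericyte and fibroblast and 1 of 3 oligodendrocyte precursor markers rose, while 0 of 6 oligodendrocyte and 0 of 4 tested B and plasma cell markers passed. Beside these short lists, 7.68% of all genes and 9.17% of the known genes passed as higher. Of 8 neuronal markers, 1 fell (Map2, -0.62 ± 0.155, adjusted p = 0.00673) and none rose. The part of these cells in the values of the members was not tested.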

How the data were processed

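Total RNA of the mPFC of 16 mice was made into cDNA-PCR libraries and sequenced on a Nanopore platform. The authors kept reads of at least 500 bases, clustered full-length reads on mm10 with minimap2 and Pinfish, and deposited the counts of reads per gene together with CPM, the same counts divided by each mouse's total, which were not used for the tests. Replicates are separate mice.

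Members and gene lists were chosen with earlier results of these data known. In R 4.3.3, edgeR 4.0.16 (filterByExpr, TMM factors, quasi-likelihood test, 1 coefficient per group, all 16 mice) was run on the deposited counts of all genes and adjusted by Benjamini-Hochberg over the 18826 genes tested. DESeq2 1.42.0 was an alternative, and the others were RLE size factors, library size alone, other filters, the compared groups alone, known genes only, a replicate block, the adjusted p alone and each mouse left out. The pipeline was run on simulated counts with the same spread for every gene. That run does not measure error rates under the spread of these mice. A standard error (SE) was obtained from the log2 fold change and the F statistic of the test.

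Values in every mouse are given for Creld2, Ssr3, Ddost, Tusc3, Hspa5, Xbp1, Atf6, and members with the smallest adjusted p (up to 8 in the averaged knockdown, 4 in each treatment). From each other pathway list up to 3 passing genes are named. Motifs were searched in RefSeq promoter windows on GRCm38.p6.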

Additional observations from a re-analysis of the deposited data

Results flagged for a closer look

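Creld2 is listed because its knockdown effects under saline and morphine had opposite directions, with every mouse of each treatment on its side, and the difference between the effects was -1.77 on the log2 scale. The gene was put among the members for this very difference, so its place in this list is no independent result. The difference was not tested here. Among 48 groups of 4 or 5 mice of the members described in every mouse, 2 held a mouse far from the others by Dixon's criterion, which chance gives in about 1 of 20 groups. P4hb stood at 34.6 CPM in Ctrl + Morphine replicate 1, with the nearest mouse at 28.6 CPM. Ssr4 stood at 316 CPM in Kdm7a-shRNA + Morphine replicate 3, with the nearest mouse at 200 CPM. This mouse had the most reads and the lowest neuronal marker sum of its group. Its microglial, astrocyte, endothelial, pericyte and fibroblast, and oligodendrocyte precursor sums were the highest of the group. Any relation of these to Ssr4 was not tested.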

How the results depend on the processing

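The 9 members higher with the knockdown under saline became 10 with DESeq2, 6 with library size alone or the known genes only, and 5 to 10 when single mice were left out, with 5 without Ctrl + Saline replicate 2. Sdf2l1, Pdia3, P4hb, Herpud1 and Ddost passed in all 16 fits without 1 mouse and in all 8 other settings of the test. Under morphine, library size alone gave 1 member (Tusc3, lower) and leaving out single mice 0 to 1 (without Kdm7a-shRNA + Morphine replicate 2). For the averaged knockdown the adjusted p alone gave 10 members, and leaving out single mice gave 2 to 4. P4hb then lost the fold criterion with library size alone (0.52) and with known genes only (0.58). Morphine under the control virus gave 0 to 3 members, with 3 without Ctrl + Saline replicate 1, and morphine under the knockdown gave 0 in every setting. These counts stand without the share of all genes passing in the same setting. They show how the calls moved, and no excess over all genes. Library size alone moved the median of all genes by -0.13 under saline and -0.11 under morphine, and the members' median from 0.17 to 0.03 under saline and from 0.02 to -0.09 under morphine. Of the 14 tested members followed through the alternatives, Sdf2l1, Hspa5, Atf6 and Pdia3 changed sign in 1 or more of them, and the sign of small values of other members was not followed. For Sdf2l1 under morphine these were -0.10 with library size alone, -0.00 with at least 10 counts in every mouse, -0.03 with the replicate block, -0.03 with known genes only, and -0.29 to 0.16 when single mice were left out. Leaving out single mice gave -0.25 to 0.10 for Hspa5 under saline, -0.25 to 0.09 for Atf6 under saline, -0.13 to 0.10 for Atf6 under morphine, -0.15 to 0.02 for Atf6 on average and -0.18 to 0.13 for Pdia3 under morphine. The cause was not tested.

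Same-numbered mice of different groups were not treated as pairs, because not every pair's deviations correlated over 0.1. This rule cannot show that the numbers carry no pairing or batch. The correlation of their deviations was -0.13 to 0.471 over 21 pairs, 7 of which were over 0.1, and 8 of 16 mice correlated best with their own number. The replicate block gave 9 members under saline, 0 under morphine and 4 on average, again without the share of all genes. Ern1 and Eif2ak3 had few reads, which limits the precision of their values.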
